A study of Mus musculus with 16 samples.

Results

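The comparison asked which genes set the cerebral cortex of mice given the short-repeat construct apart from the cortex of mice given any of 3 long-repeat constructs. All mice had received a transgene through AAV, a delivery vector made from an adeno-associated virus, and RNA of the whole cortex was sequenced in 16 libraries, all of which enter the comparison. The 4 ATG-GGC11 libraries carry 11 GGC repeats behind an ATG start codon. The other 12 comprise 4 ATG-GGC100 libraries, with 100 GGC repeats behind ATG, 4 TAG-GGC100 libraries, in which the stop codon TAG stands in place of ATG, and 4 ATG-GGN100dCT libraries, with 100 GGN codons, all of which encode glycine. The meaning of dCT, the promoter of the vectors, and the age, strain and sex of the mice are not given in the sources used here. Every group therefore carries a vector, and none is an uninjected cortex. ATG-GGC11 was set against the equally weighted mean of the 3 long-repeat groups, so that a positive difference means higher in ATG-GGC11. Of 55359 genes listed, 17737 passed the filter on low counts and were tested.

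Immediate early genes are switched on within minutes of a stimulus without new protein synthesis. In neurons, calcium entry during firing activates kinases that phosphorylate the transcription factors CREB and SRF, and these turn on genes such as Fos, Egr1, Arc and Npas4. The same genes also respond to handling, novelty, light, stress hormones and the time between an animal's last experience and the removal of the brain, and their RNA is lost again within hours.

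The libraries held 12838296 to 19130232 counts. The table's row for the ATG-GGC11 construct reached a CPM, its share of the library's counts, of 51.6 ± 14.0 (SD, n = 4) in the ATG-GGC11 libraries and 1.78 ± 0.64 CPM (SD, n = 4) in the ATG-GGC100 libraries, where the ATG-GGC100 row stood at 1.75 ± 0.56 CPM (SD, n = 4). The summed level of 15 pan-neuronal markers was 1970 to 2045 FPKM (fragments scaled to gene length and library total) in ATG-GGC11 and 1937 to 2161 in the long-repeat libraries, so these ranges overlapped. Myelin, endothelial and precursor markers had no called member, beside 0.846% of all genes, a share at which such short lists cannot show equal levels. All 15 tested myelin genes had a positive log2 difference. Of 23 tested inhibitory neuron genes, 3 were called higher and 0 lower. Whether each library is its own animal is not stated, so a p-value here reflects only the spread among libraries, which may be technical.

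In the short-repeat cortex, 150 genes differed from the mean of the long-repeat groups, 0.846% of those tested, by edgeR's quasi-likelihood test at an adjusted p of 0.05. Of these, 99 were higher in ATG-GGC11 (0.558%) and 51 were lower (0.288%). At an unadjusted p under 0.05 there were 2310. A subset of 74 genes (0.417% of those tested) was apart from all 3 long-repeat groups: they were called, had the same sign in the 3 comparisons with single groups, and had an unadjusted p under 0.05 in each. Of the genes apart, 60 were higher (0.338% of those tested) and 14 lower (0.0789%). The 3 single-group comparisons share the ATG-GGC11 libraries, so an unusual value in those libraries enters all of them. In FPKM, all 4 ATG-GGC11 libraries lay above the other 12 for 43 genes (0.242% of those tested) and below them for 41 (0.231%). The genes of largest change were named only if they had no such overlap, so for them it is no separate result.

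The split of the calls into higher and lower depended on the settings. It was 99 against 51 with TMM factors, 94 against 49 with median-ratio scaling and 74 against 64 with library totals alone. With limma on log2(FPKM + 1), which changes the test, the unit and the scaling together, it was 67 against 91. The number of calls also rested on single libraries. It was 46 without ATG-GGC11 replicate 1, 46 without replicate 2, 99 without replicate 3 and 78 without replicate 4, and it was 348 without ATG-GGN100dCT replicate 2. Genes apart from all 3 groups numbered 33 and 34 without ATG-GGC11 replicates 1 and 2.

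Genes of the immediate early response led the higher side. Of 26 tested members of 2 lists of immediate early transcription factors, 11 were called higher and 0 lower, which is 42.3% against 0.558% of all genes, and all 11 were apart from each long-repeat group. Their median log2 difference was 0.99, beside -0.00071 for all genes tested. The median was 0.92 against ATG-GGC100, 0.40 against TAG-GGC100 and 1.17 against ATG-GGN100dCT. Of the 26, 4 (15.4%) differed among the long-repeat groups themselves, beside 11.5% of all genes.

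The promoters of 5 of these and related genes are shown here because they carry the motifs discussed below. Each line gives the 250 bases before the RefSeq start (build GRCm38.p6), 5′ to 3′ on the gene's own strand. Capitals mark matches on either strand to the cAMP response element that CREB binds (TGACGTCA), its short form (TGACG), the clock factors' E-box (CACGTG) and the TATA box (TATAAA).
Fos (chr12:85473640-85473889, plus strand): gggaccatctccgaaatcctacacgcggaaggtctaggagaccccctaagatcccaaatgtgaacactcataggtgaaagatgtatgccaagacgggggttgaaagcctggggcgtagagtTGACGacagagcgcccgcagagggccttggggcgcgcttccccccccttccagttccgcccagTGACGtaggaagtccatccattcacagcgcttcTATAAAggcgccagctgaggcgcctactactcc
Ccn1 (chr3:145649986-145650235, minus strand): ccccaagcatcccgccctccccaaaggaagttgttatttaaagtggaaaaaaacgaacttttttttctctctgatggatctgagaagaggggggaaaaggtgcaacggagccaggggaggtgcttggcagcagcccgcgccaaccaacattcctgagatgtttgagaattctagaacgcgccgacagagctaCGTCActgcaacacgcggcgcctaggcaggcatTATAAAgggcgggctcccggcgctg
Btg2 (chr1:134079156-134079405, minus strand): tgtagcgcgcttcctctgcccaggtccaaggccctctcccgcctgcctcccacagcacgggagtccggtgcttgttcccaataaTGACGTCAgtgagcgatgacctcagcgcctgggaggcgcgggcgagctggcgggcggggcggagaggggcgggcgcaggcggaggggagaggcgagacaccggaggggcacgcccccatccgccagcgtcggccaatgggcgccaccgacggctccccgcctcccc
Per1 (chr11:69098699-69098948, plus strand): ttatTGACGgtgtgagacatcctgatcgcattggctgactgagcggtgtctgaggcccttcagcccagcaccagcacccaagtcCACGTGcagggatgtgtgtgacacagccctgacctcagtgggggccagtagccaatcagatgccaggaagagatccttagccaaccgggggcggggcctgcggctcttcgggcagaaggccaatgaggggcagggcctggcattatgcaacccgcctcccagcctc
Ciart (chr3:95882229-95882478, minus strand): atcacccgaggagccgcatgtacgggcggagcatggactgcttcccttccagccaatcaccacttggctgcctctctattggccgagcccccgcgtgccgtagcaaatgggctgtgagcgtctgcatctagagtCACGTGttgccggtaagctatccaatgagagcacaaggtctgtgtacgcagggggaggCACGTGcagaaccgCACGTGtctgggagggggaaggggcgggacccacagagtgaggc

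Fos encodes a subunit of the AP-1 transcription factor and is the most used marker of recently active neurons. In the 4 ATG-GGC11 libraries its level was 40.3, 41.07, 29.11 and 22.95 FPKM. In the 12 long-repeat libraries it ran from 3 to 15.79 FPKM with a median of 8.73. All 4 short-repeat libraries lay above all others, with replicate 4 the lowest of them. The log2 difference was 1.99 ± 0.27 (SE), a fold of 3.98, with an adjusted p of 0.0068 by edgeR. Fos was 1.9 ± 0.36 higher on the log2 scale against ATG-GGC100, 1.41 ± 0.36 against TAG-GGC100 and 2.67 ± 0.38 against ATG-GGN100dCT (SE).

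**Figure D1:**
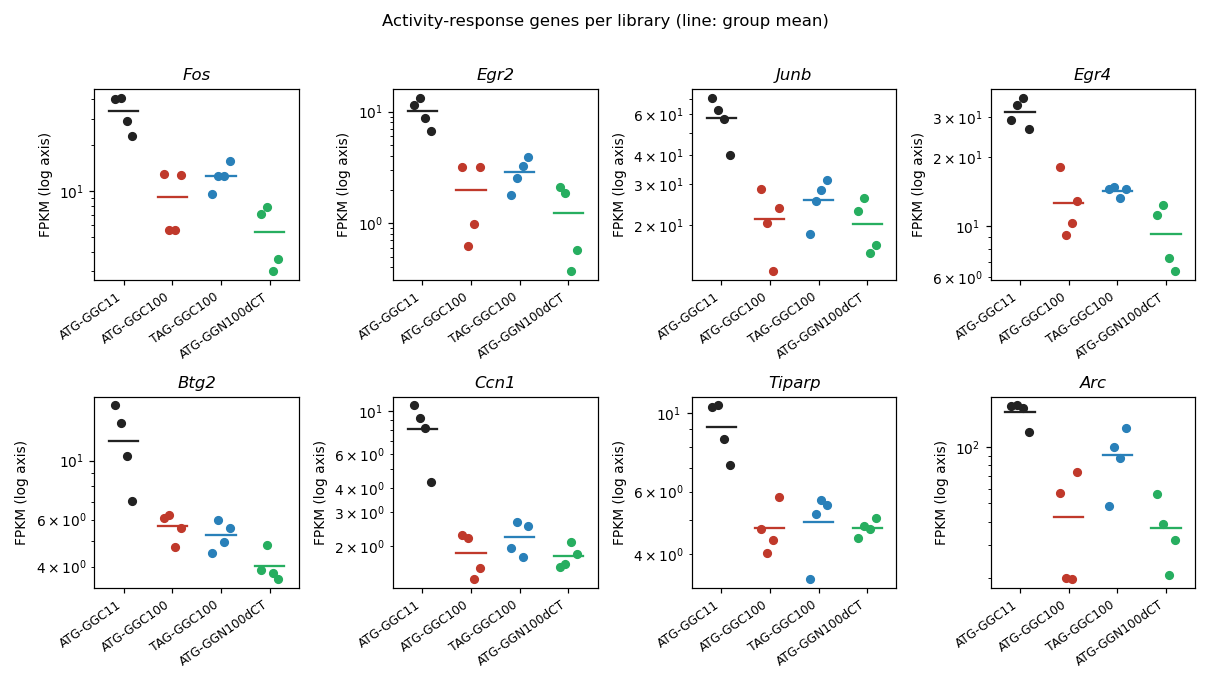
Level of 8 activity-response genes in each library (FPKM, log axis; 1 point per library, line at the group mean, 4 libraries per group). The ATG-GGC11 points of Fos lie between 22.95 and 41.07 and all others at or below 15.79, while for Arc the lowest ATG-GGC11 library, at 120.24, lies below the highest TAG-GGC100 library, at 126.84.

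The other genes of the AP-1 family did not all move. Junb, a Jun-family subunit, stood at 70.78, 62.45, 57.32 and 40.18 FPKM in ATG-GGC11 against 12.6 to 31.08 (median 23.25) in the long-repeat libraries. The groups did not overlap, and the log2 difference was 1.41 ± 0.20 (SE; edgeR adjusted p = 0.00786). Fosl2 had a log2 difference of 1.47 ± 0.19 and Fosb of 1.20 ± 0.21 (SE). Jun, at a log2 difference of 0.01, Jund, at 0.05, and Maff, at 0.18, did not pass the test. Atf3, an AP-1 relative induced by injury and stress, had a log2 difference of 1.05 and an adjusted p of 0.092. The call of Fosb was lost without ATG-GGC11 replicate 1 or 2, with an adjusted p of up to 0.0812.

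Among the EGR zinc-finger factors, Egr2 had the largest difference of the 99 higher genes. Its ATG-GGC11 levels were 11.48, 13.34, 8.75 and 6.72 FPKM, and the long-repeat libraries ran from 0.37 to 3.93 with a median of 2.00. No long-repeat library reached the lowest short-repeat one. The log2 difference was 2.43 ± 0.39 (SE; edgeR adjusted p = 0.0138), but the call was lost without ATG-GGC11 replicate 1 or 2, with an adjusted p of up to 0.079. Egr4 stood at 29.15, 33.83, 36.38 and 26.54 FPKM against 6.38 to 18.19 and a log2 difference of 1.43 ± 0.17 (SE; edgeR adjusted p = 0.00147), and kept its call without any single library. Egr1 had a log2 difference of 1.07 with an adjusted p of 0.154, and Egr3 of 0.56 with 0.180.

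The NR4A orphan nuclear receptors are activity-induced factors of the same wave. Nr4a3 stood at 14.81, 15.82, 12.79 and 13.26 FPKM in ATG-GGC11 against 1.93 to 8.45 (median 5.16) elsewhere. Its groups did not overlap, with a log2 difference of 1.56 ± 0.22 (SE; edgeR adjusted p = 0.00684). Nr4a1 had a log2 difference of 1.39 ± 0.24 and lost its call without ATG-GGC11 replicate 1, 2 or 3, with an adjusted p of up to 0.0904. Nr4a2 had a log2 difference of 1.00 and an adjusted p of 0.218.

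Npas4, a neuron-specific factor induced by calcium entry, stood at 11.34, 8.9, 7.89 and 8.7 FPKM against 1.13 to 6.02 (median 4.17). The groups did not overlap, and the log2 difference was 1.40 ± 0.27 (SE; edgeR adjusted p = 0.0322). It lost its call in 7 of 16 fits that left out 1 library: any ATG-GGC11 library, ATG-GGC100 replicate 3, and TAG-GGC100 replicate 1 or 3, with an adjusted p of up to 0.128. Btg2, an antiproliferative cofactor of mRNA decay, stood at 16.1, 13.85, 10.39 and 7.07 FPKM against 3.6 to 6.25 (median 4.88). It had no overlap and a log2 difference of 1.30 ± 0.15 (SE; edgeR adjusted p = 0.000733), and kept its call in all 16 fits.

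Ccn1 (Cyr61), a secreted matricellular protein that binds integrins, had the smallest p of all genes tested. Its levels were 10.71, 9.22, 8.23 and 4.28 FPKM in ATG-GGC11 and 1.36 to 2.68 FPKM (median 1.9) in the long-repeat libraries. Every short-repeat library exceeded every other. The log2 difference was 2.09 ± 0.17 (SE), a fold of 4.27, with an adjusted p of 8.42e-06 by edgeR, and the largest of its 3 single-group p-values remained under the threshold after adjustment over all genes, at 0.00502. No other gene met that rule (0.00564% of genes tested). Its relative Ccn2 had a log2 difference of 0.27 with an adjusted p of 0.441. Of 14 tested targets of YAP, TEAD and SRF, 0 were called, beside 0.846% of all genes. At that share a list of 14 is too short for 0 calls to be a result.

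Of 31 tested activity-induced effectors, genes whose products act at synapses or in signalling after the first wave, 5 were higher (16.1%, beside 0.558% of all genes) and 0 lower. Their median log2 difference was 0.28, beside -0.00071 for all genes. They were Per1, Sik1, Gadd45b, Dusp1 and Gadd45g. Sik1, a salt-inducible kinase that restrains CREB coactivators, stood at 5.84, 6.17, 5.35 and 4.64 FPKM against 1.27 to 3.56, with no overlap and a log2 difference of 1.27 ± 0.21 (SE; edgeR adjusted p = 0.0137). Dusp1, a phosphatase of MAP kinases, had a log2 difference of 1.06 ± 0.19, and Gadd45b, a stress sensor linked to DNA demethylation, of 0.82 ± 0.15 (SE). Sik1 and Dusp1 lost their calls without ATG-GGC11 replicate 1 or 2, with an adjusted p of up to 0.0904, and Gadd45b without replicate 1, 2 or 3, with an adjusted p of up to 0.0822.

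Arc, a synaptic protein whose RNA travels to active dendrites, stood at 164.88, 166.46, 160.54 and 120.24 FPKM in ATG-GGC11. The long-repeat libraries ran from 19.85 to 126.84 FPKM with a median of 52.34, and TAG-GGC100 replicate 4 lay above the lowest short-repeat library. The log2 difference was 1.58 ± 0.34 (SE) with an adjusted p of 0.0555 by edgeR. It was called without ATG-GGC100 replicate 4, at an adjusted p of 0.0356, and without ATG-GGN100dCT replicate 1, at 0.0481, and by DESeq2 with all libraries, at 0.00166. Bdnf, a growth factor induced later than Fos, had a log2 difference of 0.15 ± 0.22, and the late secretory genes Scg2, at -0.05, and Vgf, at -0.12, also did not pass.

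Across the 16 libraries the genes whose log2 CPM followed Fos most closely were Egr2, with a Pearson r of 0.984, Nr4a3, at 0.982, and Nr4a1, at 0.974. After each group's mean was removed, these coefficients were 0.971, 0.922 and 0.953. The values are descriptions; the points share the library's depth and their group. Fosl2, Egr4, Dusp1, Arl5b, Fosb, Midn and 1700016P03Rik completed the first 10, and all but Midn were apart from each long-repeat group.

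Outside the activity lists, 39 of the 60 higher genes apart belonged to no list. Tiparp, which encodes a mono-ADP-ribosyltransferase, stood at 10.38, 10.51, 8.45 and 7.15 FPKM against 3.4 to 5.78 (median 4.75). The groups did not overlap, and the log2 difference was 0.96 ± 0.12 (SE; edgeR adjusted p = 0.000733). Ppp1r3c, a subunit that targets protein phosphatase 1 to glycogen, stood at 25.23, 26.59, 27.27 and 24.04 FPKM against 13.44 to 21.75, also without overlap, with a log2 difference of 0.62 ± 0.08 (SE; edgeR adjusted p = 0.000621). The serine/threonine kinase gene Pim3 had a log2 difference of 0.57 ± 0.08 and Tob2, of the same antiproliferative family as Btg2, of 0.39 ± 0.07 (SE). Tob2 and Coq10b, a coenzyme Q-binding protein gene with a log2 difference of 0.64 ± 0.11, lost their calls without ATG-GGC11 replicate 2, with an adjusted p of up to 0.0531.

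A pair of the higher genes occupy the same stretch of chromosome 11. 1700016P03Rik, the host transcript of the microRNA genes Mir212 and Mir132, stood at 15.55, 15.69, 13.51 and 14.17 FPKM against 3.39 to 11.64 (median 6.195). Ovca2, a predicted serine hydrolase gene, stood at 7.54, 6.68, 5.76 and 5.34 FPKM against 3.44 to 4.9. Neither overlapped, and their log2 differences were 1.26 ± 0.16 and 0.70 ± 0.10 (SE). In the table's coordinates both genes share 1692 bases on opposite strands, and with no strand step named their reads cannot be told apart there. Utp14b, a gene of ribosome assembly, lies within 13475 bases shared with Acsl3 and had a log2 difference of 0.70 ± 0.10 (SE), while Acsl3 had -0.0032.

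**Figure D2:**
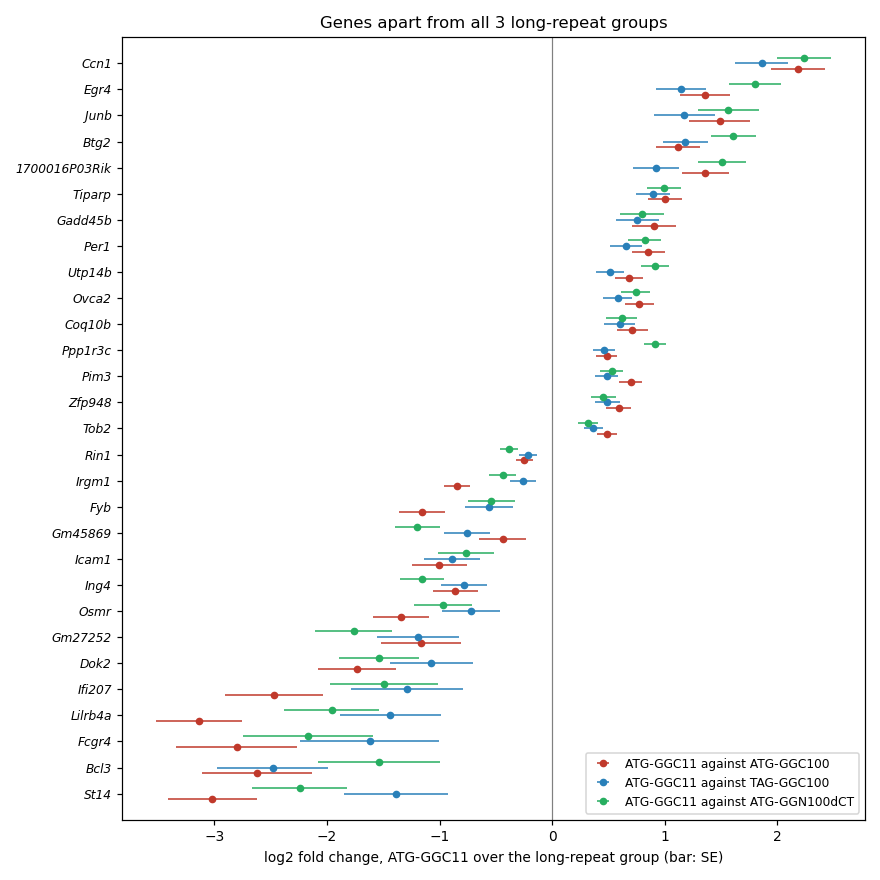
Log2 fold change of ATG-GGC11 over each long-repeat group (point, with its SE as a bar) for 15 higher and 14 lower genes apart from all 3. Ccn1 lies at 2.18, 1.86 and 2.24 against ATG-GGC100, TAG-GGC100 and ATG-GGN100dCT, and Lilrb4a at -3.13, -1.44 and -1.96.

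The median difference was not the same against each long-repeat group, though the medians were not tested against one another. For the 60 higher genes apart, the median log2 difference was 0.64 against ATG-GGC100, 0.52 against TAG-GGC100 and 0.73 against ATG-GGN100dCT. These genes were selected on the same 3 comparisons, so none of the medians could be near 0. Across all genes tested, the single-group comparisons called 621 genes (3.5%), 1 gene (0.00564%) and 1181 genes (6.66%) respectively. Of the 76 called genes that were not apart, 73 had an unadjusted p of 0.05 or more against TAG-GGC100. Differences among the 3 long-repeat groups were called for 80 of the 150 genes and for 11 of the 74 apart. The share over all genes was 11.5% (2047 of 17737). Among the 60 higher genes apart, 7 differed in this way, which is near that share.

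The clock gene list was examined because the time of collection, which the labels do not give, would move it. Of 19 tested clock genes, 3 were higher (15.8%, beside 0.558% of all genes) and 0 lower: Per1, Ciart and Rorb, the last of which lost its call in 12 of the 16 fits that left out 1 library, each ATG-GGC11 library included. Per1 encodes a repressor of the clock and is itself an immediate early gene. It stood at 23.19, 28.09, 25.24 and 23.16 FPKM in ATG-GGC11 against 9.87 to 17.49 (median 15.2), without overlap, at a log2 difference of 0.78 ± 0.11 (SE; edgeR adjusted p = 0.00634).

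Ciart, a repressor of the clock's activator complex, stood at 7.47, 7.37, 6.83 and 4.93 FPKM against 1.96 to 5.12 (median 3.73). The lowest ATG-GGC11 library lay below ATG-GGC100 replicate 2. The log2 difference was 0.87 ± 0.16 (SE; edgeR adjusted p = 0.0143), and the call was lost without ATG-GGC11 replicate 1 or 2, with an adjusted p of up to 0.0826. Per2 had a log2 difference of -0.02 ± 0.15, Dbp, a clock output factor, of 0.33 ± 0.13, Nr1d1, the repressor REV-ERB alpha, of 0.23 ± 0.08, and Arntl, the activator BMAL1, of -0.13 ± 0.10 (SE), and none passed. The collection time and the construct cannot be told apart in these libraries.

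**Figure D3:**
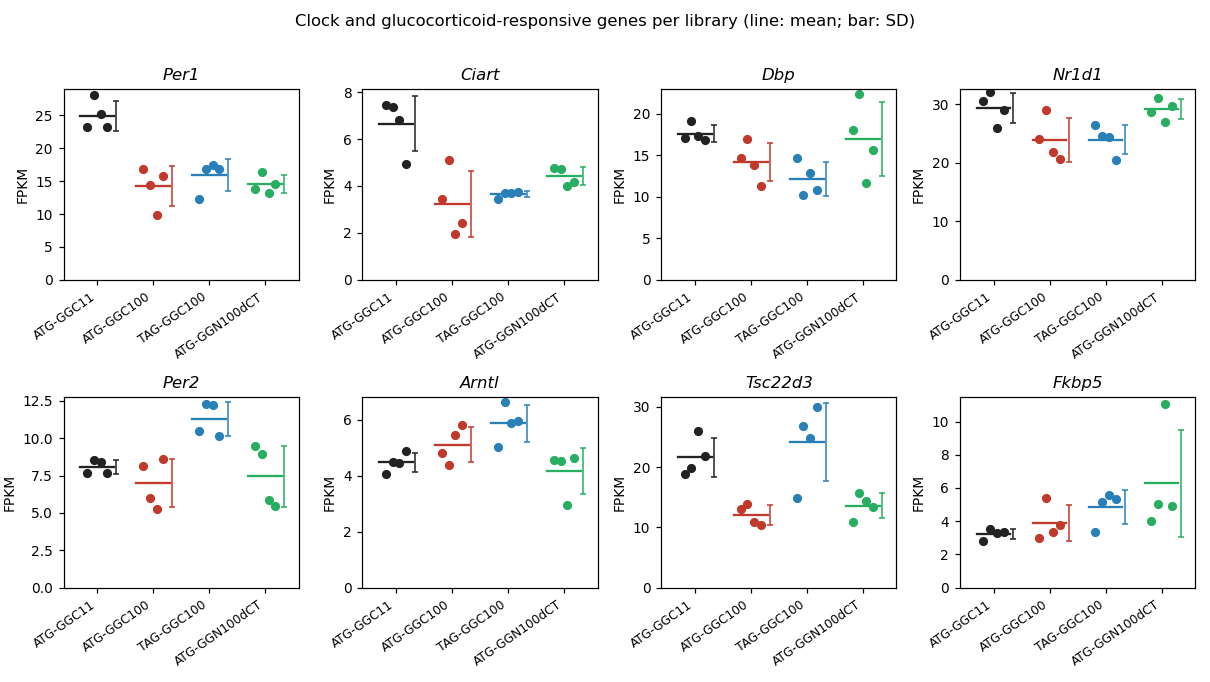
Level of 6 clock genes and 2 glucocorticoid-responsive genes in each library (FPKM; line at the group mean, bar SD, 4 libraries per group). The ATG-GGC11 points of Per1 lie between 23.16 and 28.09 and all others at or below 17.49, while the Per2, Dbp and Arntl points of ATG-GGC11 lie within the range of the other libraries.

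Of 22 tested glucocorticoid-responsive genes, 2 were higher (9.09%, beside 0.558% of all genes) and 0 lower. They were Per1 and Dusp1, both also in the activity lists. Tsc22d3 (GILZ), a glucocorticoid-induced leucine zipper gene, had 18.8 to 26.02 FPKM in ATG-GGC11 and 10.32 to 30.05 elsewhere, with a log2 difference of 0.48 ± 0.15 (SE) and an adjusted p of 0.170 by edgeR. Fkbp5, which encodes a cochaperone of the glucocorticoid receptor, had a log2 difference of -0.57 ± 0.25, and Sgk1, a kinase gene, of 0.53 ± 0.25 (SE), with adjusted p-values of 0.359 and 0.392.

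No gene was called among 24 cytosolic heat shock genes, 21 genes of endoplasmic reticulum folding, 22 genes of the ATF4 response or 2 cold-inducible RNA-binding genes. Over all genes the share called was 0.846%, so in lists this short the absence of calls is no separate result. The unadjusted p was under 0.05 for 3, 0, 6 and 0 genes of these lists, beside 2310 of the 17737 genes tested. Of the 3 heat shock genes, 2 were higher and 1 lower. All 6 of the ATF4 genes were higher, and 21 of the 22 ATF4 genes had a positive log2 difference. The median of the ATF4 list was 0.14 against ATG-GGC100, 0.098 against TAG-GGC100 and 0.11 against ATG-GGN100dCT. Hspa5, the main chaperone of the endoplasmic reticulum, was 0.45 ± 0.18 above ATG-GGC100 and 0.54 ± 0.18 above ATG-GGN100dCT but -0.60 ± 0.18 against TAG-GGC100 on the log2 scale (SE). Its 4 TAG-GGC100 levels were 70.01, 106.85, 113.24 and 152.87 FPKM. Of 18 tested hypoxia, 14 insulin and FOXO, and 21 cholesterol genes, 1 each was higher (5.56%, 7.14% and 4.76%), beside 0.558% of all genes. These were Vegfa, Irs2 and Cyp51, of which only Cyp51, a sterol demethylase, was apart from all 3 groups. The calls of Vegfa were lost without ATG-GGC11 replicate 1, 3 or 4, of Irs2 without replicate 2, 3 or 4 and of Cyp51 without replicate 2 or 4, with an adjusted p of up to 0.131.

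**Figure D4:**
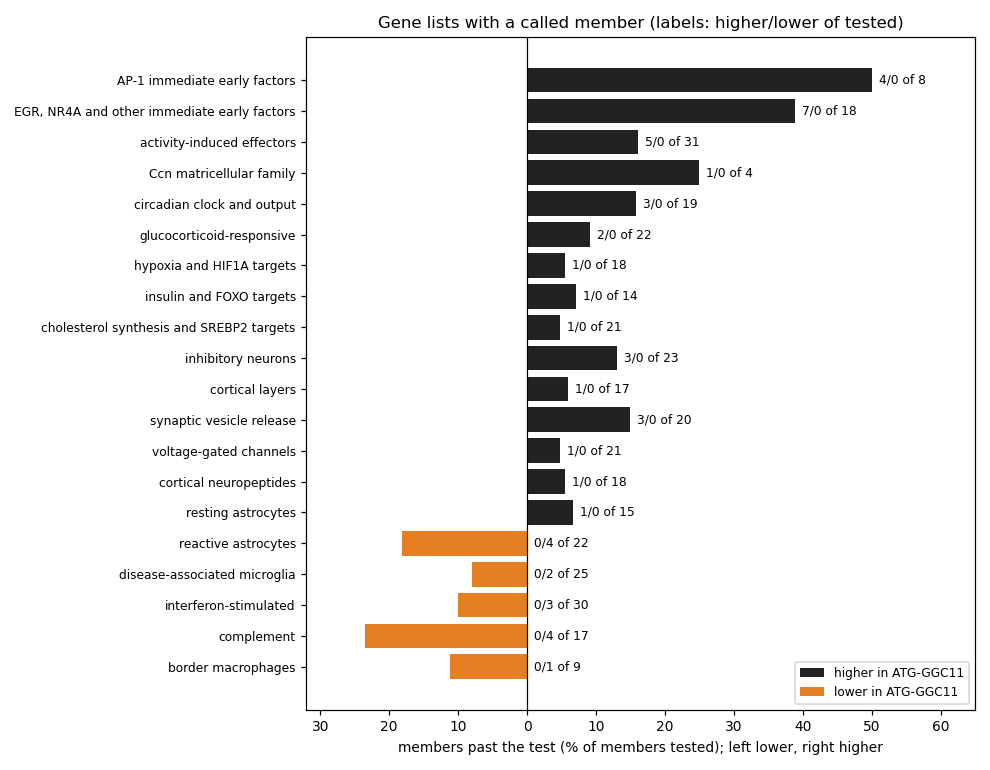
Share of tested members called higher (right) or lower (left) in ATG-GGC11, for each list with at least 1 called member; the labels give higher/lower of the members tested. The AP-1 list reaches 50% higher (4 of 8), against 0.558% of all genes.

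Motif matches in the 250 bases before the start were counted on both strands for 49 of the 60 higher genes apart with a RefSeq promoter, and for all 27025 genes. The full cAMP response element was found in 4 of the 49 (8.16%; Arl4d, Arl5b, Btg2 and Dusp1) and in 1.62% of all promoters. Its short form TGACG, which the full element contains, was found in 20 (40.8%) and in 17.9% of all. CACGTG was found in 11 (22.4%), Per1 and Ciart among them, and in 6.05% of all. The Ciart promoter above holds it at 3 places.

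TATAAA was found in 7 (14.3%) and in 12.97% of all promoters; those of Fos and Ccn1 hold it 33 and 25 bases before the start. The CArG box that SRF binds was found in 1 of the 49 (2.04%) and in 1.40% of all, and the AP-1 site TGANTCA in 0 and in 6.87%. Within the activity lists, TGACG was found in 10 of 14 called genes with a promoter (71.4%) and in 15 of the 28 other members with a promoter (53.6%). Those 15 include Batf, which did not pass the filter on low counts and was not tested. Promoters were not matched for base composition, and a match describes letters only.

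On the lower side, the 14 genes apart were mostly faint: 11 had a mean under 1 FPKM in both arms. Lilrb4a, an inhibitory receptor of myeloid cells, had 0.02, 0.04, 0.08 and 0.01 FPKM in ATG-GGC11 and 0.09 to 0.47 (median 0.17) elsewhere. No library overlapped, and the log2 difference was -2.18 ± 0.36 (SE; edgeR adjusted p = 0.00679). St14, a membrane serine protease gene, had 0.03, 0.02, 0.02 and 0.02 FPKM against 0.04 to 0.28, also without overlap, with a log2 difference of -2.22 ± 0.37 (SE). Both kept their calls in all 16 fits that left out 1 library.

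Bcl3, a nuclear cofactor of NF-kappaB, had 0.1, 0.04, 0.16 and 0 FPKM against 0.17 to 0.69 and a log2 difference of -2.21 ± 0.45 (SE; edgeR adjusted p = 0.0185). It lost its call without ATG-GGC11 replicate 1, 2 or 4, with an adjusted p of up to 0.110. Irgm1, an interferon-induced GTPase, was the one immune gene apart with over 1 FPKM in both arms, at 1.56, 1.31, 1.57 and 1.33 FPKM against 1.61 to 3.05. Its log2 difference was -0.51 ± 0.10 (SE; edgeR adjusted p = 0.0138), and it lost its call without ATG-GGC11 replicate 2 or 4, with an adjusted p of up to 0.0904. In bulk tissue, fewer cells of a type and less RNA per cell cannot be told apart.

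Several glial genes were called lower, with smaller differences from TAG-GGC100 than from the other groups. Of 22 tested reactive astrocyte genes 4 were lower (18.2%), of 25 disease-associated microglia genes 2 (8%), of 30 interferon-stimulated genes 3 (10%) and of 17 complement genes 4 (23.5%), beside 0.288% of all genes, and 0 were higher in each. The 37 lower genes that were not apart had median log2 differences of -1.24 against ATG-GGC100, -0.14 against TAG-GGC100 and -0.96 against ATG-GGN100dCT. Genes mostly counted as not apart through the comparison with TAG-GGC100, so the small median there follows from the selection. Over all tested members of the lists, in the order above, the medians against TAG-GGC100 were -0.23, 0.12, -0.06 and -0.01. They were -0.93, -0.84, -1.18 and -0.90 against ATG-GGC100, and -0.49, -0.16, -0.72 and -0.29 against ATG-GGN100dCT.

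Clec7a, a microglial pattern receptor, had 0.07, 0.02, 0.18 and 0.03 FPKM in ATG-GGC11. The TAG-GGC100 libraries had 0.05, 0.1, 0.24 and 0.17, while ATG-GGC100 had 2.98, 2.51, 3.45 and 3.55. The short-repeat range thus overlapped that of TAG-GGC100 alone, and the log2 difference was -3.09 ± 0.50 from the mean but -0.86 ± 0.70 from TAG-GGC100 (SE). Gfap, the astrocyte filament, had a log2 difference of -1.05 ± 0.24 (SE) with an adjusted p of 0.0637 by edgeR.

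**Figure D5:**
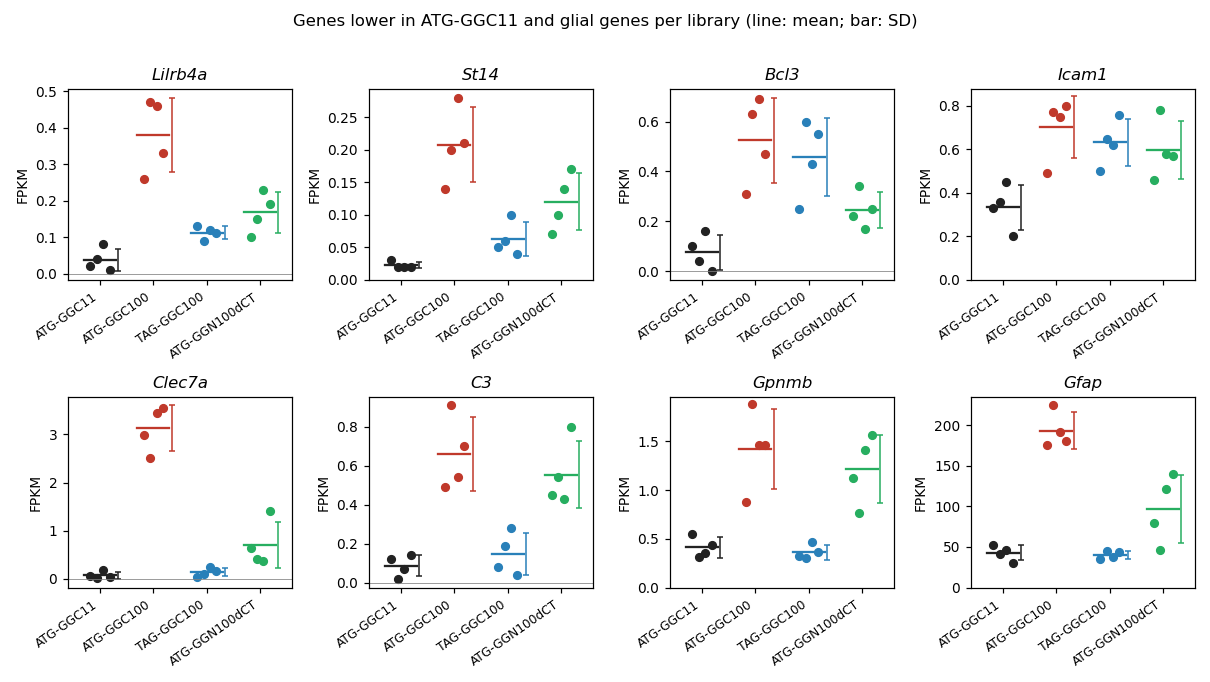
Level of 4 genes lower than all 3 long-repeat groups (top) and 4 glial genes (bottom) in each library (FPKM; line at the group mean, bar SD, 4 libraries per group). Gfap lies at 30.47 to 52.78 in ATG-GGC11, at 34.5 to 44.38 in TAG-GGC100 and at 175.44 to 225.29 in ATG-GGC100.

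Of 20 tested genes of synaptic vesicle release 3 were higher (15%), Vamp1, Syt2 and Rims1, and of 23 inhibitory neuron genes 3 were higher (13.04%), Cort and Kcnc1 among them, beside 0.558% of all genes. None of the 5 genes named here was apart from all 3 groups, and all 5 differed among the long-repeat groups. Vamp1 kept its call in all 16 fits that left out 1 library. Syt2 lost it without ATG-GGC11 replicate 1 or 3, Rims1 without replicate 1, 2 or 3 and Cort without any 1 of the 4, with an adjusted p of up to 0.133, and Kcnc1 lost it in 10 of the fits, each ATG-GGC11 library included. Vamp1, a vesicle SNARE gene, had a log2 difference of 0.88 ± 0.10 against ATG-GGC100, 0.11 ± 0.10 against TAG-GGC100 and 0.73 ± 0.10 against ATG-GGN100dCT (SE). Pvalb, a calcium-binding protein gene of fast-spiking interneurons, had a log2 difference of 0.67 ± 0.18 (SE) from the mean, with an adjusted p of 0.118 by edgeR.

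An astrocyte gene outside the reactive list was on the higher side. S1pr1, a sphingosine-1-phosphate receptor gene of resting astrocytes and endothelium, stood at 55.18, 56.13, 65.13 and 54.93 FPKM against 33.7 to 52.84 (median 47.4). The groups did not overlap, with a log2 difference of 0.36 ± 0.06 (SE; edgeR adjusted p = 0.00751). It was the one called gene of 15 tested resting astrocyte genes (6.67%, beside 0.558% of all genes), and its call was kept in all 16 fits. Of the 15, 13 had a positive log2 difference, with a median of 0.08. An unadjusted p under 0.05 was reached by 6, all of them higher, beside 2310 of the 17737 genes tested.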

How the data were processed

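Poly(A) RNA of the cortex was sequenced in 16 libraries of 4 groups, assigned by the construct code in each title. FastQC 0.10.1, cutadapt 1.9.1, GRCm39 and mm10 appear in the submitters' processing notes; aligner, counter and annotation are not given in the sources used here. In 1 table the authors deposited raw counts per gene and FPKM values (fragments scaled to gene length and library total), whose coordinates name no build. No strand step is named, so overlapping antisense genes cannot be told apart. All columns of samples were mapped.

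Counts of 17737 genes kept by filterByExpr (minimum count 10) were scaled by TMM (factors 0.973 to 1.04) and tested by the two-sided quasi-likelihood test of edgeR 4.0.16 (R 4.3.3; robust glmQLFit) in a single model of all 16 libraries with a term for group. P-values were adjusted by Benjamini-Hochberg over all genes tested, at a threshold of 0.05. The common biological coefficient of variation was 0.112. Differences are log2 fold changes with standard errors. The depth of 12838296 to 19130232 counts leaves genes under 1 FPKM with few counts. Alternatives used DESeq2 1.42.0 and limma 3.58.1.

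The test was tried on simulated counts for this comparison (17511 genes). It recovered 62% of the 1.5-fold, 78% of the 2-fold, 96% of the 3-fold and 92% of the 4-fold changes, with 9 false calls among 173.

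The comparison, the gene lists and the rules were chosen with earlier results of these data known. Named genes were the 10 of largest change per direction with at least 1 FPKM and no overlap, up to 4 called members per list, the 15 genes apart per direction with the smallest largest p, and a fixed list of clock, stress and activity genes; other list members named were chosen after their values were seen. A called gene that the rules name is not reported here. The TGACG motif and the 5 promoters shown were also chosen after first matches were seen. Replicate pairs of a group differed by more than sampling noise (chi-square per degree of freedom 4.83 to 22.9 over 24 pairs).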

Additional observations from a re-analysis of the deposited data

Results flagged for a closer look

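Among 82 named genes, each group of 4 libraries was examined for 1 library far from the other 3, in 328 examinations of which chance flags about 1 in 20; 20 were found. ATG-GGC11 replicate 3 was high for S1pr1 (65.13 FPKM, others 54.93 to 56.13). ATG-GGC11 replicate 4 was low for Arc (120.24 FPKM, others 160.54 to 166.46) and Cirbp (16.54 FPKM), and replicate 1 was high for St14 (0.03 FPKM). ATG-GGC100 replicate 1 was high for Rims1 (28.01 FPKM) and low for Vim (10.08), Serpina3n (18.67, others 36.26 to 37.58) and Icam1 (0.49), and replicate 2 was high for Gm27252 (1.08 FPKM). TAG-GGC100 replicate 1 was low for Per1 (12.25 FPKM, others 16.82 to 17.49), Cdkn1a (7.51) and Hspa8 (200.76), and high for Cirbp (20.64). TAG-GGC100 replicate 4 was high for Ccn2 (13.98 FPKM). ATG-GGN100dCT replicate 3 was low for Irgm1 (1.61 FPKM) and Arntl (2.93), and high for Gadd45b (13.42, others 6.3 to 7.22), Fkbp5 (11.09) and Zfp948 (7). ATG-GGN100dCT replicate 4 was high for C4b (21.01 FPKM).

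For 36 named genes the 3 long-repeat groups differed from one another, so that the difference from ATG-GGC11 was not the same against each, by edgeR's adjusted p. Among higher genes these were Fosl2 (adjusted p = 0.0153), Vegfa (0.000338), Irs2 (0.018), Cort (0.00111), Kcnc1 (0.00166), Vamp1 (0.000161), Syt2 (0.000536), Rims1 (0.00431), S1pr1 (0.0116) and Ppp1r3c (0.00738). Among lower genes they were 1700001K19Rik (0.0193), Irgm1 (0.00619), Lilrb4a (0.0045), St14 (0.0107), Gm45869 (0.0338), Vim (0.000374), Serpina3n (0.000495), Cxcl10 (0.00177), Clec7a (9.65e-06), Gpnmb (0.00019), Ifitm3 (0.00278), Lgals3bp (6.78e-06), Itgb2 (0.000327), C3 (0.00738), C4b (0.000355), C1qa (2.88e-05) and Mrc1 (0.000479). Among genes that were not called they were Per2 (0.0269), Arntl (0.0233), Tsc22d3 (0.00557), Hspa1a (0.0132), Hspa5 (0.00177), Cirbp (0.0327), Rbm3 (0.0275), Gfap (0.0014) and Pvalb (0.0279).

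The ATG-GGC11 construct's row, which no test used, held counts in the ATG-GGC100 libraries, at 1.78 CPM, against 0.0303 CPM in the ATG-GGN100dCT libraries.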

How the results depend on the processing

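The 150 calls became 255 with no filter on low counts, 24 with the long-repeat libraries as 1 arm of 12, 376 with DESeq2 and 76 with a change of at least 1.5 times required. They became 62, 1006 and 46 with ATG-GGC100, TAG-GGC100 or ATG-GGN100dCT left out of the mean. The 74 genes apart became 114 with no filter and 125 with DESeq2. Leaving out 1 library gave 46 to 348 calls, 33 to 105 genes apart, and 961 to 2684 genes that differed among the long-repeat groups, the lowest without TAG-GGC100 replicate 2. That last count was also 1355 without TAG-GGC100 replicate 4 and 1346 without ATG-GGN100dCT replicate 4. The replicate numbers did not pair the samples: 24 same-numbered pairs had correlations of -0.206 to 0.193, and 0 of 16 libraries correlated best with their own number. With the replicate block there were 131 calls, 69 genes apart and 1509 differences among the long-repeat groups.

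Of 62 called named genes, 20 kept their call in all 16 fits that left out 1 library. The sign of 4 genes, none of them called, turned. Per2 became 0.21 (log2) without TAG-GGC100 in the mean and ran from -0.066 to 0.029 when 1 library was left out. Hspa1a became -0.058 without ATG-GGN100dCT in the mean, and Hspa5 -0.028 and -0.0744 without ATG-GGC100 or ATG-GGN100dCT. Rbm3 became 0.089 without ATG-GGN100dCT and ran from -0.054 to 0.031 when 1 library was left out, the highest without TAG-GGC100 replicate 1. The cause was not tested. Under the other scalings the median log2 difference of all genes was at most 0.0308 from 0. Faint genes under 1 FPKM are limited by depth.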

Other observations

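The red blood cell list, with 0 of 5 tested genes called, beside 0.846% of all genes, had a median log2 difference of 0.82. The summed level was 63.54 to 138.1 FPKM in ATG-GGC11, 64.58 to 85.06 in ATG-GGC100, 43.38 to 92.61 in TAG-GGC100 and 8.04 to 47.9 in ATG-GGN100dCT. The part of these genes in the other differences was not tested.

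Of 15 tested myelin and oligodendrocyte genes, all had a positive log2 difference, with a median of 0.29. By edgeR 0 were called, beside 0.846% of all genes. An unadjusted p under 0.05 was reached by 5, beside 2310 of the 17737 genes tested. Their summed level was 910.4 to 1341 FPKM in ATG-GGC11 and 602.8 to 1168 in the long-repeat libraries. Of 21 tested cholesterol synthesis genes 19 had a positive difference, with a median of 0.20 and Cyp51 the one call.

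Of 12 hepatocyte genes 0 were called in the contrast, beside 0.846% of all genes. Their summed level was nevertheless 29.73 to 33.97 FPKM in ATG-GGN100dCT and 1.23 to 8.77 in the other 12 libraries.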
